A study of Mus musculus with 48 samples.

Results

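Nefl, Nefh, Sptan1 and Thy1 are 4 genes of the axon and its cytoskeleton, taken by name from the 757 genes of the nCounter Glial panel. All 4 passed into every test, since no filter on low values was applied. They were read in cortex RNA from 24 mice aged 7.5 months. The 4 groups of 6 mice were 5xFAD females, 5xFAD Plcg2+/- females, 5xFAD males and 5xFAD Plcg2+/- males. Every mouse carried the 5xFAD transgenes, and the Plcg2+/- mice also had 1 disrupted copy of Plcg2, which encodes phospholipase C gamma 2, an enzyme of microglial receptor signalling. The 5xFAD transgenes, human genes with familial Alzheimer mutations, are driven by the Thy1 promoter, so no group shows cortex without them. The Plcg2 gene itself was not analysed here. The study compared the Plcg2+/- mice with the 5xFAD mice, and the titles and the gender labels agreed on the sex of each mouse.

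Neurofilaments are heteropolymers that fill large axons and set their calibre. Nefl encodes the light chain, which forms the core of the filament, and Nefh the heavy chain, whose long phosphorylated tail projects from it. Sptan1 encodes the alpha II spectrin chain, which pairs with beta spectrins to lay the periodic lattice under the axon membrane. Thy1 is not a cytoskeletal protein: it is a GPI-anchored glycoprotein of the neuronal surface, and in the mouse it is on T cells too. RefSeq lists all 4 as protein coding, Nefl (gene ID 18039) on chromosome 14, Nefh (380684) on chromosome 11, Sptan1 (20740) on chromosome 2 and Thy1 (21838) on chromosome 9. No sequence is printed, because no source used here holds the probe sequences, and whether the Thy1 probe also reads transcripts of the Thy1-driven transgenes was not tested.

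The values are log2 normalized counts, and each member was well counted. The whole counts behind the values ran from 388 to 1449 for Nefl, 368 to 1170 for Nefh, 1332 to 6126 for Sptan1 and 3483 to 9318 for Thy1 over the 24 mice, so counting error was at most 0.075 log2 units. Total counts per mouse were 953461 to 1239109 in 5xFAD females and 1773331 to 1897264 in Plcg2+/- females, which do not overlap. They were 1360757 to 1814975 in the males of both genotypes. The 5xFAD males, from 1428825 upward, did not overlap the 5xFAD females either. The 5xFAD mice bear animal numbers 1177 to 1270 and the Plcg2+/- mice 3 to 51, so cohort and genotype cannot be told apart. Plcg2+/- female 12 and Plcg2+/- male 3 stood apart from their groups, with the lowest array weights of the 24 mice (0.32 and 0.15), and results that they move are given with and without them. In bulk cortex, fewer neurons and less RNA per neuron cannot be told apart.

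On the Glial panel the genotype difference of these genes depended on sex. In females all 4 were higher in Plcg2+/- than in 5xFAD mice, by 1.14-fold (Thy1) to 1.43-fold (Sptan1). In males Nefl, Sptan1 and Thy1 were lower in Plcg2+/- mice, and Nefh did not pass the test. The genotype difference averaged over both sexes passed for Nefh alone, and not with neuron-marker centring or without a sex term.

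Nefl, the light chain, was lowest in 5xFAD females, with 9.09 as the lowest, 9.66 as the median and 9.79 as the highest value. In Plcg2+/- females the lowest, median and highest values were 9.65, 9.92 and 10.07, so the female groups overlapped slightly. In males the order was turned: 5xFAD males lay within 10.33, 10.37 and 10.42, and Plcg2+/- males at 9.88, 10.04 and 10.34. The 5xFAD males were the tightest of the groups (SD 0.035), and 1 Plcg2+/- male, male 3, reached their range. The genotype difference, Plcg2+/- minus 5xFAD, was 0.32 ± 0.096 (SE) in females (limma, adjusted p = 0.00686) and -0.31 ± 0.096 in males (adjusted p = 0.0136). Over both sexes it was 0.0059 ± 0.068 (adjusted p = 0.944), the average of opposite differences.

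Nefh, the heavy chain, showed the same rise in females. Its lowest, median and highest values were 9.02, 9.15 and 9.38 in 5xFAD females and 9.44, 9.51 and 9.63 in Plcg2+/- females, with every Plcg2+/- female above every 5xFAD female. In males the values were 9.85, 10.03 and 10.14 in 5xFAD and 9.88, 9.94 and 9.99 in Plcg2+/- mice. The Plcg2+/- males lay wholly within the 5xFAD range. The difference was 0.34 ± 0.058 in females (adjusted p = 5.93e-05) and -0.07 ± 0.058 in males (adjusted p = 0.372), with a 95% interval from -0.187 to 0.0557 in males. Over both sexes Nefh was 0.13 ± 0.041 higher in Plcg2+/- mice (adjusted p = 0.00757). Centring each mouse on neuron markers brought this to 0.002 (adjusted p = 0.957), and a model with no sex term lost the call (adjusted p = 0.449).

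Sptan1, the spectrin chain, had the widest spread of group means. The lowest, median and highest values were 10.87, 11.4 and 11.7 in 5xFAD females against 11.73, 11.92 and 11.95 in Plcg2+/- females, so those groups did not overlap either. They were 12.22, 12.39 and 12.53 in 5xFAD males and 12.03, 12.1 and 12.25 in Plcg2+/- males. The male groups overlapped only at their edges. The difference was 0.51 ± 0.092 in females (adjusted p = 7.43e-05), -0.28 ± 0.092 in males (adjusted p = 0.0202) and 0.12 ± 0.065 over both sexes (adjusted p = 0.124). Without 5xFAD female 1189 the difference over both sexes became 0.151 and passed (adjusted p = 0.0318).

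Thy1, the surface glycoprotein, moved least in females. Its lowest, median and highest values were 12.26, 12.33 and 12.52 in 5xFAD females and 12.47, 12.51 and 12.77 in Plcg2+/- females. The highest of these, Plcg2+/- female 12, stood apart from the other 5, and the female groups overlapped. In males the values were 12.96, 13.05 and 13.13 in 5xFAD and 12.64, 12.81 and 13.01 in Plcg2+/- mice. Here male 3 was the Plcg2+/- male that reached into the 5xFAD range, and the other 5 lay below it. The difference was 0.19 ± 0.062 in females (adjusted p = 0.0132), -0.23 ± 0.062 in males (adjusted p = 0.00668) and -0.02 ± 0.044 over both sexes (adjusted p = 0.709). Centring each mouse on its median gene left the female difference at 0.129 (adjusted p = 0.0759), and centring on neuron markers turned it to -0.03, so the female rise of Thy1 was called with the deposited scaling and not with these.

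**Figure D1:**
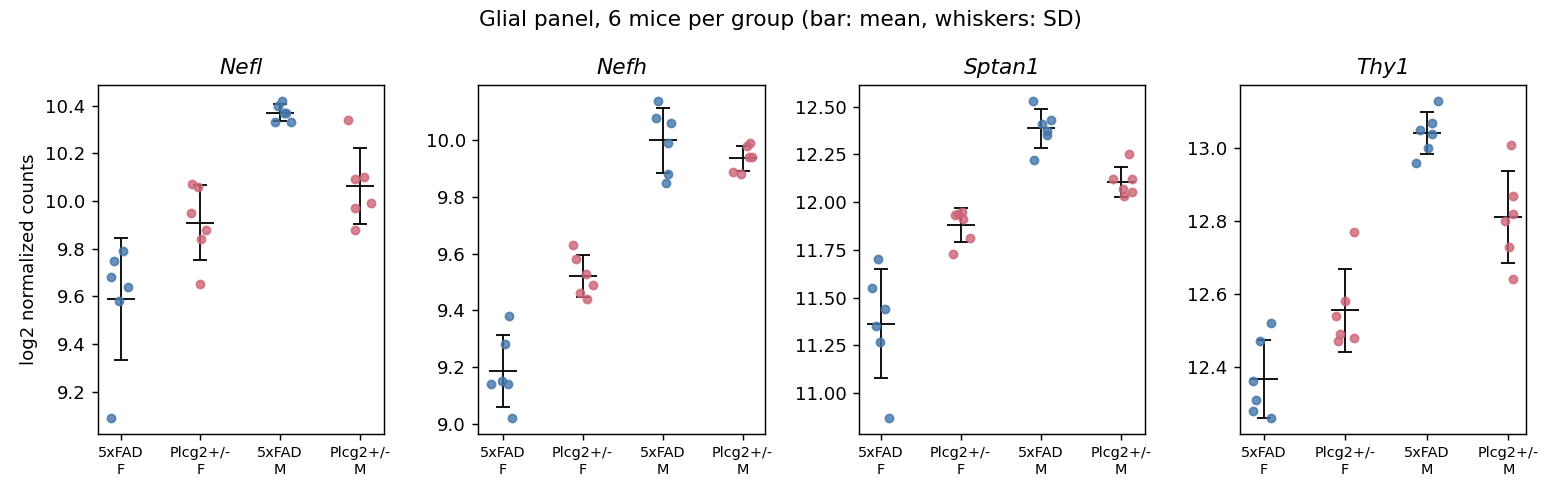
Log2 normalized counts of each gene on the Glial panel (vertical axis) by group (horizontal axis). Each point is 1 mouse, the bar is the mean of 6 mice and the whiskers are the SD. In all 4 genes the 5xFAD females are lowest on average and the 5xFAD males highest.

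Counts of calls have to be read against the panel, on which calls were common. In females 54.8% of the 757 genes were called in either direction at an adjusted p under 0.05 and 34.5% were called higher in Plcg2+/- mice. All 4 members were among the latter. In males 40.7% were called and 23.5% were called lower, and 3 of the 4 members were among those lower. Over both sexes 60.5% were called, 256 genes higher and 202 lower, and 1 of the 4 members. Female values of a gene did not overlap between genotypes in 26.6% of genes, and in Nefh and Sptan1 among the members. Male values did not overlap in 9.11% of genes and in none of the members.

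The opposed pattern was less common. A gene called higher in Plcg2+/- females and called lower in Plcg2+/- males occurred 18 times, 2.38% of the panel, and Nefl, Sptan1 and Thy1 were 3 of the 18. The difference between the sexes was itself tested as an interaction, the genotype difference in males minus that in females. It was -0.63 ± 0.14 for Nefl (adjusted p = 0.00209), -0.40 ± 0.083 for Nefh (adjusted p = 0.00166), -0.79 ± 0.13 for Sptan1 (adjusted p = 0.000216) and -0.42 ± 0.088 for Thy1 (adjusted p = 0.00175). All 4 passed, where 21.9% of the panel did. For each of the 4 genes 6 of 6 Plcg2+/- females lay above the 5xFAD female mean and 6 of 6 Plcg2+/- males below the 5xFAD male mean. Leaving out female 12 and male 3 kept the 4 interactions past the threshold, at -0.656, -0.368, -0.786 and -0.417 in the same order of genes.

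**Figure D2:**
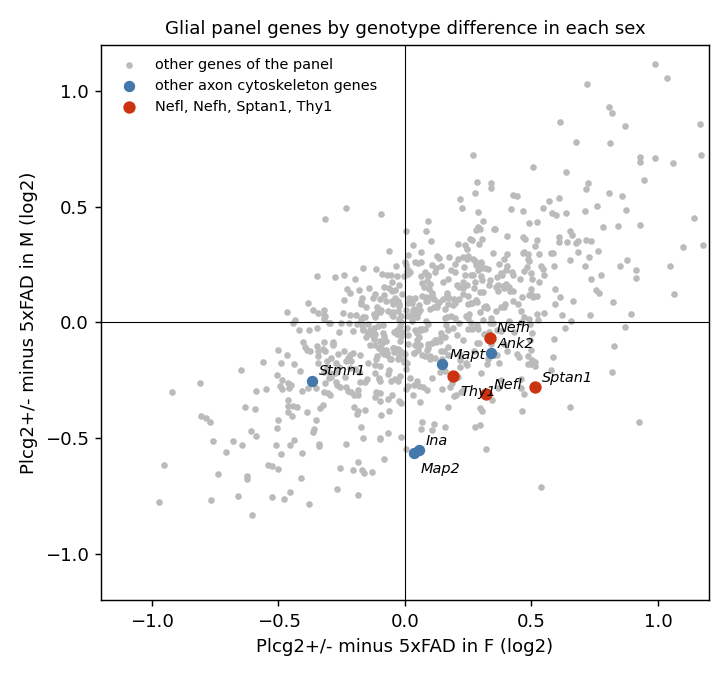
Genotype difference in females (horizontal axis) against that in males (vertical axis), in log2 units, for the genes of the Glial panel (12 of 757 lie outside the axes). Nefl, Nefh, Sptan1 and Thy1 (red) lie at the lower right, higher in Plcg2+/- females and lower in Plcg2+/- males, with Nefh close to 0 in males. The 5 genes measured from a list of other axon cytoskeleton genes, among them Map2 of dendrites, are in blue.

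The sexes differed as well, and by more in 5xFAD than in Plcg2+/- mice, which is the same interaction read across sex. Group means fell in 1 order for each of the 4 genes, 5xFAD males highest, then Plcg2+/- males, Plcg2+/- females and 5xFAD females, an order found in 15.9% of panel genes. Neighbours in this order that did not pass were Plcg2+/- males and Plcg2+/- females for Nefl, and 5xFAD and Plcg2+/- males for Nefh. In 5xFAD mice males exceeded females by 0.78 ± 0.096 for Nefl (adjusted p = 3.95e-07), 0.81 ± 0.058 for Nefh (adjusted p = 5.74e-10), 1.02 ± 0.092 for Sptan1 (adjusted p = 5.8e-09) and 0.68 ± 0.062 for Thy1 (adjusted p = 7.97e-09). In no member did the 5xFAD sexes overlap, as in 45.2% of genes, and 66.3% of genes were called. Much of the panel shared this direction: the median gene was 0.31 higher in 5xFAD males, which leaves 0.47, 0.5, 0.71 and 0.37 for Nefl, Nefh, Sptan1 and Thy1. With each mouse centred on its median gene all 4 remained called, at 0.516, 0.547, 0.754 and 0.411.

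In Plcg2+/- mice the sex difference was small. Males exceeded females by 0.15 ± 0.096 for Nefl (adjusted p = 0.172), 0.41 ± 0.058 for Nefh (adjusted p = 2.63e-05), 0.23 ± 0.092 for Sptan1 (adjusted p = 0.0376) and 0.26 ± 0.062 for Thy1 (adjusted p = 0.00177). The sexes did not overlap in Nefh and Sptan1, nor in 20.2% of panel genes, and 61.8% of genes were called. The median gene was 0.24 higher in males, so Nefl, Sptan1 and Thy1 lay at -0.09, -0.02 and 0.01 relative to it and Nefh at 0.17. After centring on the median gene, Nefh was the member still called (0.244, adjusted p = 0.00308).

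Other genes of the axon cytoskeleton were sparse on the Glial panel: 5 of a list of 31 were measured, and none of 16 axonal transport genes. In males 4 of the 5 were lower in Plcg2+/- mice and none was higher, where 178 of the 757 panel genes were lower and 130 higher. In females 1 was higher and 1 lower, where 261 panel genes were higher and 154 lower. Ina, which encodes alpha-internexin, a partner of the neurofilament chains, was 0.05 in females (adjusted p = 0.745) and -0.55 in males (adjusted p = 0.00234). Map2, a microtubule protein of dendrites, was 0.03 in females (adjusted p = 0.826) and -0.56 in males (adjusted p = 0.00113). In the Plcg2+/- groups both genes thus had the male fall without a called female rise. With female 12 and male 3 left out, the male differences were -0.67 for Ina and -0.69 for Map2, both called.

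Mapt, the axonal microtubule protein tau, came closest to the members, with 0.15 in females (adjusted p = 0.0527) and -0.18 in males (adjusted p = 0.0274). Ank2, an ankyrin that tethers spectrin to membrane proteins, rose by 0.34 in females (adjusted p = 7.72e-05) and was -0.13 in males (adjusted p = 0.0845). Stmn1, which encodes the microtubule-destabilizing protein stathmin, fell in both sexes, by 0.37 in females (adjusted p = 1.88e-06) and 0.25 in males (adjusted p = 0.000503). Interactions passed for Ank2 (-0.47, adjusted p = 0.000603), Ina (-0.61, adjusted p = 0.0197), Map2 (-0.60, adjusted p = 0.0138) and Mapt (-0.33, adjusted p = 0.0115). Stmn1 gave 0.12 (adjusted p = 0.232). The list's median difference was 0.05 in females and -0.25 in males, against 0.08 and 0 for all genes.

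Over both sexes 202 of the 757 panel genes were called lower and 256 higher, against which the following counts stand. Of the enzymes that modify or cleave neurofilaments, 7 of 15 listed were measured, and over both sexes 4 were lower and none higher. They were Ppp2ca (-0.22), a catalytic chain of protein phosphatase 2A, the stress kinase genes Mapk8 (-0.26) and Mapk10 (-0.25), and Gsk3b (-0.21), which encodes a tau and neurofilament kinase. Cdk5r1, the p35 activator of the kinase CDK5, was named after its values were seen: it rose by 0.33 in females (adjusted p = 4.89e-05) and fell by 0.16 in males (adjusted p = 0.0299), one of the 18 genes with opposed calls. On the Neuropathology panel of the same mice Cdk5r1 was lower in both sexes, at -0.34 in females (adjusted p = 0.0481) and -0.76 in males (adjusted p = 0.000247), so its female difference had opposite signs on the panels. Of 13 spectrin-associated and actin genes, 3 were measured and all 3 were lower over both sexes: Tmsb4x (-0.78), which encodes the actin-sequestering peptide thymosin beta 4, and Arpc5l (-0.64) and Arpc2 (-0.14), of the Arp2/3 complex. Of 14 Thy1 partners and axon surface genes, 4 were measured and 2 were higher over both sexes. These were the adhesion molecule gene Ncam1 (0.34) and Cntnap1 (0.27), a protein of the paranodal junction. Itgam, a chain of the integrin that can bind Thy1, was at 0.11 (adjusted p = 0.185) and Cntnap2 at -0.02 (adjusted p = 0.658).

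On the Glial panel most neuron markers were higher in Plcg2+/- females too, and none was called lower in males. In females 4 of 5 measured pan-neuronal markers, 3 of 4 excitatory markers and both inhibitory markers were higher in Plcg2+/- mice and none was lower. The summed level of the 5 pan-neuronal markers was 39342 to 49386 normalized counts in 5xFAD females and 49504 to 58712 in Plcg2+/- females. In males 2 of 5, 1 of 4 and both were higher and none was lower. The male sums were 59417 to 62388 in 5xFAD and 57455 to 74989 in Plcg2+/- mice. Of all 757 genes, 261 were called higher and 154 lower in females. In males 130 were called higher and 178 lower. Among the markers of this panel, over both sexes, the synaptic vesicle genes Syn1 (0.33), Syt1 (0.18) and Snap25 (0.14) were called. So were Camk2a (0.15) and Tbr1 (0.28) of excitatory neurons and the GABA synthesis genes Gad1 (0.32) and Gad2 (0.26). Eno2 (0.13), Slc17a7 (0.08) and Slc17a6 (-0.03) were not. Nor was the pan-neuronal marker Uchl1 (-0.07, adjusted p = 0.466), named here beyond the naming rule. The Neuropathology panel did not give this picture. There 1 of 2 pan-neuronal, 2 of 4 excitatory and 3 of 5 inhibitory markers were called lower in Plcg2+/- males, and 0, 1 and 2 in females. In the same order, 0, 2 and 2 were called higher in males and 1, 2 and 2 in females, so the lists were split. Of all 760 genes there, 291 were called lower and 140 higher in males. In females 144 were called lower and 268 higher. Syt1 was at -0.63 over both sexes (adjusted p = 0.000385) and Slc17a6 at -1.01 (adjusted p = 2.95e-06), and Syt1 was therefore called in opposite directions on the panels.

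With each mouse centred on the pan-neuronal and excitatory markers, Nefh (0.115, adjusted p = 0.0405) and Sptan1 (0.294, adjusted p = 0.00152) stayed called in females and Nefl (0.102, adjusted p = 0.336) and Thy1 (-0.03, adjusted p = 0.725) did not. In males the falls were then larger, at -0.355 for Nefl, -0.324 for Sptan1 and -0.275 for Thy1, each called. The interactions of Nefl (-0.457), Nefh (-0.225) and Sptan1 (-0.618) stayed called, and that of Thy1 was -0.245 (adjusted p = 0.0723).

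Among the other cell types, the 6 measured T cell markers, relevant because mouse T cells carry Thy1, summed to 175 to 375 normalized counts over all mice. In females 2 of 6 were higher in Plcg2+/- mice and none lower, and in males 2 of 6 were higher while Thy1 was lower. These were Cd3d (1.72 over both sexes) and Cd8a (1.1) in each sex. Both were dim, with mean normalized counts of 10.9 for Cd3d and 9.0 for Cd8a, so their differences rest on few counts. Most of the sum came from Cd4 (mean normalized count 192.9), which was not called over both sexes (0.12, adjusted p = 0.245). Of oligodendrocyte markers 1 of 6 was called over both sexes, Mbp at -0.40. Astrocyte markers were called higher in 2 and lower in 1 of 5, and microglial markers higher in 2 and lower in 2 of 7. Endothelial markers were called lower in 3 of 4. Of all 757 genes, 256 were called higher and 202 lower over both sexes. The part of these cell types in the member results was not tested.

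Within groups, deviations of the 4 genes correlated from mouse to mouse, in most pairs more closely among 5xFAD than among Plcg2+/- mice. Deviations from the group means over 24 mice correlated for all 6 pairs, from Pearson's r of 0.5 (Nefl with Nefh) to 0.74 (Nefl with Sptan1), with permutation p-values adjusted over the 6 pairs of 0.0234 and 0.00353. Spearman's rho for these pairs was 0.34 (adjusted permutation p = 0.1) and 0.59 (adjusted permutation p = 0.00638). Without the 2 mice farthest from the Nefl median, r for Nefl with Nefh was 0.29 and with Sptan1 0.49, so the first rests on those mice. Under quantile normalization Nefl with Nefh (0.29, adjusted permutation p = 0.168) and Nefh with Thy1 (0.22, adjusted permutation p = 0.232) did not pass. Sptan1 and Thy1 gave r = 0.59 and rho = 0.73, and 0.56 without 2 mice. Within the genotypes, r for Sptan1 with Thy1 was 0.86 among 12 5xFAD and 0.43 among 12 Plcg2+/- mice. In the same order it was 0.78 and 0.23 for Nefh with Sptan1, and 0.78 and 0.32 for Nefh with Thy1. For Nefl it was 0.57 and 0.39 with Nefh, 0.87 and 0.52 with Sptan1, and 0.61 and 0.74 with Thy1. The genotypes were not compared in a test of r. On the Glial panel 5xFAD female 1180 was the lowest of the 24 mice in each of the 4 genes. It also had the lowest total count (953461) and an array weight of 0.37. The r values among 5xFAD mice include this female and were not computed without it, so how far they rest on it was not tested. Among the 756 other genes, members ranked from 10 to 98 in r with each other.

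The genes that tracked each member most closely over these 24 mice had r of 0.77 or more, and all points share library and scaling. Nefl was closest to Prkce (r = 0.92), a protein kinase C gene, Rtn1 (0.87), a reticulon of neurons, and Mapt (0.85), where the median r of Nefl with all genes was 0.08. Thy1 was closest to Mapt (0.9), Ap2m1 (0.83), of the clathrin adaptor AP-2, and Gng3 (0.83), a G protein gamma subunit of neurons. Nefh was closest to Hsp90ab1 (0.88), a chaperone gene, the creatine kinase gene Ckb (0.79) and Atp9a (0.77), a phospholipid flippase gene. Sptan1 was closest to Eno2 (0.82), Pmepa1 (0.81) and Sox10 (0.79), a transcription factor gene of the oligodendrocyte lineage. Leaving out female 12 and male 3 gave r between 0.7 (Thy1 with Ap2m1) and 0.91 (Nefl with Prkce).

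The same 24 mice were read on the nCounter Neuropathology panel of 760 genes, which holds Nefl, Nefh and Thy1 but not Sptan1. The panels were normalized separately, so their values stand side by side and no difference between them was tested. Total counts there were 528033 to 651615 in 5xFAD females and 1220459 to 1603006 in Plcg2+/- females. In males they were 865095 to 1274953 in 5xFAD and 1119119 to 1587858 in Plcg2+/- mice. The 5xFAD females thus overlapped no other group in depth, and the part of depth in the differences was not tested. The share of genes called there was 71.6% for genotype over both sexes, 54.2% in females and 56.7% in males. Nefl went the same way as on the Glial panel in females, and Nefh and Thy1 did not.

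Nefl on the Neuropathology panel had lowest, median and highest values of 9.42, 9.62 and 9.75 in 5xFAD females and 9.66, 9.81 and 10.06 in Plcg2+/- females. In males they were 9.99, 10.12 and 10.26 in 5xFAD and 9.76, 10.05 and 10.48 in Plcg2+/- mice, the latter spanning the former. The female difference was 0.22 ± 0.094 (adjusted p = 0.0477), the male difference -0.05 ± 0.094 (adjusted p = 0.666) and that over both sexes 0.09 ± 0.066 (adjusted p = 0.247). Without female 12 and male 3 they were 0.179 (adjusted p = 0.0399), -0.133 (adjusted p = 0.123) and 0.023 (adjusted p = 0.701). With each mouse centred on its median gene the female difference lost its call (0.159, adjusted p = 0.0626) and the male difference turned to a called rise (0.172, adjusted p = 0.0387).

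Nefh on the Neuropathology panel ran from 8.74 over a median of 8.88 to 9.05 in 5xFAD females and from 8.31 over 8.51 to 9.34 in Plcg2+/- females. In males it ran from 9.6 over 9.81 to 9.83 in 5xFAD and from 8.44 over 8.81 to 9.79 in Plcg2+/- mice. Female 12 (9.34) and male 3 (9.79) were the highest Plcg2+/- mice, and the other 5 of each sex lay at 8.31 to 8.76 and 8.44 to 9.13. The difference over both sexes was -0.54 ± 0.12 (adjusted p = 0.000585), opposite in sign to the Glial panel's 0.13. In females it was -0.25 ± 0.17 (adjusted p = 0.222) and in males -0.83 ± 0.17 (adjusted p = 0.000508). Without female 12 and male 3 the female difference was -0.391 (adjusted p = 0.00188), the male -1.007 (adjusted p = 2.2e-08) and the difference over both sexes -0.699 (adjusted p = 1.97e-08). On the Glial panel the same 2 mice did not stand apart in Nefh: female 12 read 9.63 against 9.44 to 9.58 in the other 5, and male 3 read 9.88 against 9.89 to 9.99.

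**Figure D3:**
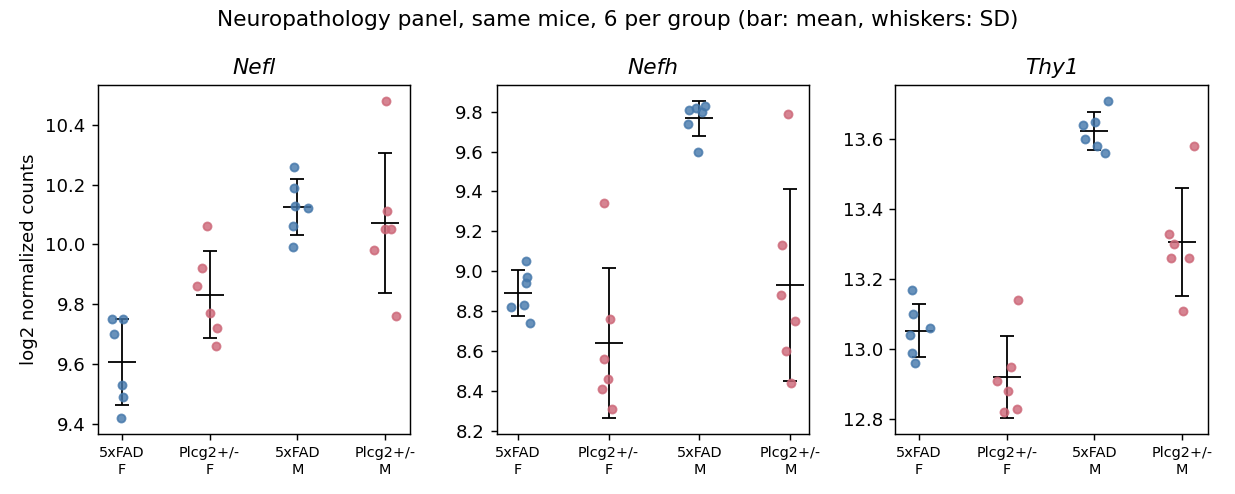
Log2 normalized counts of Nefl, Nefh and Thy1 on the Neuropathology panel (vertical axis) by group (horizontal axis), with each point 1 mouse, the bar the mean of 6 mice and the whiskers the SD. In Nefh and Thy1 a single Plcg2+/- mouse of each sex lies above the rest of its group.

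Thy1 on the Neuropathology panel had lowest, median and highest values of 12.96, 13.05 and 13.17 in 5xFAD females and 12.82, 12.89 and 13.14 in Plcg2+/- females. In males they were 13.56, 13.62 and 13.71 against 13.11, 13.28 and 13.58. Female 12 and male 3 were again the highest Plcg2+/- mice, and the other 5 of each sex lay below every 5xFAD mouse of that sex. The difference was -0.13 ± 0.066 in females (adjusted p = 0.096), -0.32 ± 0.066 in males (adjusted p = 0.000417) and -0.23 ± 0.046 over both sexes (adjusted p = 0.000227). Without the 2 mice these were -0.174 (adjusted p = 0.00291), -0.376 (adjusted p = 5.09e-07) and -0.275 (adjusted p = 2.59e-07). The male difference of Thy1 was called on both panels with the deposited scaling, and the female difference had opposite signs. The male call was lost on the Glial panel under quantile normalization (-0.146, adjusted p = 0.0541) and on the Neuropathology panel under median centring (-0.098, adjusted p = 0.104).

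**Figure D4:**
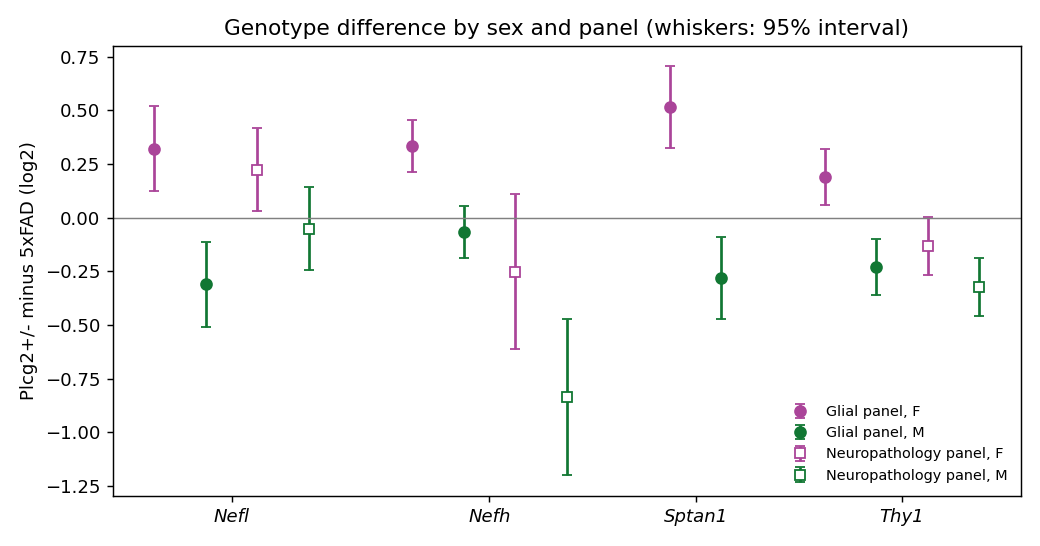
Genotype difference, Plcg2+/- minus 5xFAD in log2 units (vertical axis), for each gene by panel and sex, with 95% intervals. On the Glial panel (filled circles) the female values are above 0 for all 4 genes and the male values below it; on the Neuropathology panel (open squares) Nefh and Thy1 lie below 0 in both sexes, and the intervals of both genes in females reach 0.

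Interactions on the Neuropathology panel kept the sign of the Glial panel and did not pass, at -0.28 for Nefl (adjusted p = 0.132), -0.58 for Nefh (adjusted p = 0.0905) and -0.19 for Thy1 (adjusted p = 0.135), where 19.1% of genes were called. Without female 12 and male 3 all 3 passed, at -0.312, -0.616 and -0.202 (adjusted p = 0.0225, 0.00189 and 0.019). Centring on the median gene instead gave 0.013 for Nefl and 0.098 for Thy1, so the sign of these interactions rested on the scaling. Sex differences in 5xFAD mice were 0.52 for Nefl, 0.88 for Nefh and 0.57 for Thy1, each called, as were 85.1% of genes, and the median gene was 0.54 higher in males. Relative to it Nefl lay at -0.02, Nefh at 0.34 and Thy1 at 0.04, lower than the Glial panel's 0.47, 0.5 and 0.37. In Plcg2+/- mice, where 65.5% of genes were called for sex, the differences were 0.24 for Nefl, 0.29 for Nefh and 0.38 for Thy1, around a median gene at 0.34.

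Over all 24 mice, the panels ranked Thy1 alike and Nefh not. Deviations from the group means correlated between the panels over 24 mice with r = 0.9 and rho = 0.79 for Thy1 (adjusted permutation p = 3e-05 and 0.00024, adjusted over 3 genes). For Nefl r was 0.34 (adjusted permutation p = 0.211) and rho 0.45 (adjusted permutation p = 0.0713), and for Nefh r was 0.13 (adjusted permutation p = 0.373) and rho 0.2 (adjusted permutation p = 0.292). The median r over the 251 genes on both panels was 0.58. Without the 2 mice farthest from the median, r was 0.83 for Thy1, 0.67 for Nefl and 0.05 for Nefh. With female 12 and male 3 left out it was 0.83, 0.08 and 0.17, so the Nefl value depended on which mice were left out. Among the 12 5xFAD mice r was 0.75 for Thy1, -0.13 for Nefl and 0.64 for Nefh. Among the 12 Plcg2+/- mice it was 0.97, 0.72 and 0.01. Of those 251 genes 188 (74.9%) had the same sign of the genotype difference over both sexes on both panels. Among the 134 called on both, 20 had opposite signs, Nefh being one of them.

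**Figure D5:**
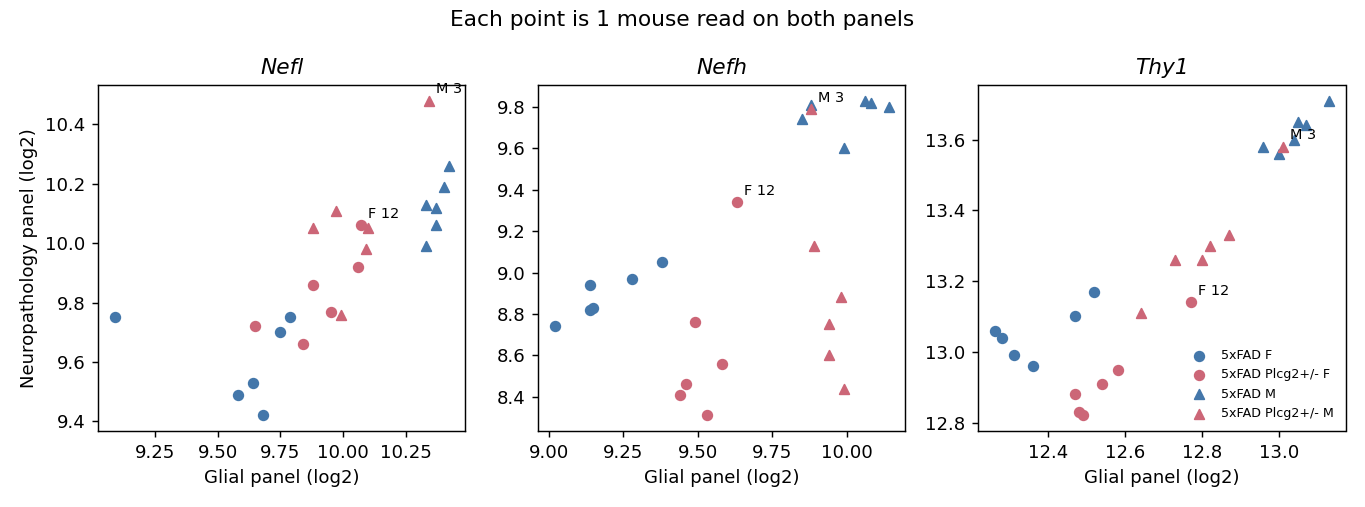
Log2 normalized counts on the Glial panel (horizontal axis) against the Neuropathology panel (vertical axis) for Nefl, Nefh and Thy1; each point is 1 mouse, females as circles and males as triangles. In Nefh the Plcg2+/- mice (red) other than female 12 and male 3 drop to 8.31 to 9.13 on the Neuropathology panel while spanning 9.44 to 9.99 on the Glial panel.

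The genes of the axon cytoskeleton and transport lists on the Neuropathology panel include some with the same split of mice as Nefh. Map2 was lower in Plcg2+/- mice (-1.36 over both sexes, adjusted p = 0.000341), with female 12 at 12.59 against 9.87 to 10.79 in the other 5 females and male 3 at 13.21 against 10.27 to 10.97. On the Glial panel female 12 and male 3 were highest of their groups for Map2 too, at 12.45 against 11.82 to 12.08 and 12.72 against 11.81 to 12.03. Kif3a, a kinesin-2 motor chain of axonal transport, was at -0.98 (adjusted p = 1.92e-06), with female 12 at 9.62 against 8.66 to 9.01 and male 3 at 10.19 against 8.78 to 9.19. Without these 2 mice Map2 was at -1.76 and Kif3a at -1.15, both called. Deviations of Nefh correlated with those of Map2 at r = 0.93 and with those of Kif3a at 0.86 over the 24 mice, and with 40 of the other genes above 0.9. Without female 12 and male 3 these r were 0.67 and 0.44, and 0 genes were above 0.9, so the close correlations rest on those mice. What these mice share, and why the panels part in Nefh, was not tested.

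Of the axon cytoskeleton list, 5 of 31 were on the Neuropathology panel, and 3 were lower over both sexes and none higher. Map2 and Dcx (-0.79, adjusted p = 0.000226), doublecortin of migrating neurons, were among the 3. Leaving out female 12 and male 3 put Dcx at -0.99, and Ina (-0.22, adjusted p = 6.93e-05) and Mapt (-0.11, adjusted p = 0.00578) were then called lower as well. In males all 5 genes of the list were lower, Ina at -0.42 and Mapt at -0.23 among them. Of the 760 genes there, 291 were called lower in males and 274 over both sexes. In females Dcx fell by 0.63 and Ina (0.23, adjusted p = 0.141) and Mapt (0.11, adjusted p = 0.163) did not pass.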

How the data were processed

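Cortex RNA of 24 mice (6 per group) was read on 2 nCounter panels, with total RNA from a column kit per the labels. The deposited tables hold log2 normalized counts. How they were normalized is not given in the sources used here. Turned back from log2, 100% of the deposited values lay within 0.05 of an integer after division by a factor particular to the sample, which gave counts and totals. Totals were 953461 to 1897264 per mouse (Glial) and 528033 to 1603006 (Neuropathology). Mice of a group differed beyond counting noise (chi-square per degree of freedom at least 2.49 and 1.83).

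Each panel was fitted apart with limma 3.58.1 in R 4.3.3: 4 group means, contrasts, eBayes, Benjamini-Hochberg over all 757 or 760 genes, calls at an adjusted p under 0.05. The fit was tested on simulated data. Labels name separate animals. Correlation p-values came from 100000 permutations of mice within groups. Members, lists and tests were chosen with earlier results of these data known. Named genes were the members, each measured gene of the axon cytoskeleton and transport lists, up to 4 genes of smallest p (genotype over both sexes) from each other list, and 3 closest correlates per member, with exceptions said; some genes the rule takes are not reported here. From the microglial, astrocyte, oligodendrocyte and endothelial lists mostly counts are given. Of 757 gene names 752 matched RefSeq symbols. Alternatives were 2 centrings, quantile normalization, no dim genes (mean under 20), trend and robust moderation, array weights, no sex term, each sex alone, voom on the recovered counts and leaving out mice (for the list genes and correlates, chosen after seeing the data).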

Additional observations from a re-analysis of the deposited data

Results flagged for a closer look

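Among 28 gene, panel and group combinations, 2 held a mouse far from the other 5, where chance gives about 1 in 20. Nefl on the Glial panel was 9.09 in 5xFAD female 1180, with the nearest mouse at 9.58. The same mouse read 9.75 for Nefl on the Neuropathology panel, among the highest of its group, whose range was 9.42 to 9.75. Thy1 on the Glial panel was 12.77 in Plcg2+/- female 12, with the nearest mouse at 12.58. That mouse was also highest of its group for Thy1 on the Neuropathology panel, at 13.14 against at most 12.95 in the others. The genotype difference depended on sex in all 4 genes by the test of the interaction on the Glial panel, at -0.63 (Nefl), -0.40 (Nefh), -0.79 (Sptan1) and -0.42 (Thy1).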

How the results depend on the processing

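No paired analysis was possible because the genotypes and sexes compared share no animal numbers, and the panels, which share them, were not compared in a fit. On the Glial panel the female differences of Nefh and Sptan1, the male differences of Nefl and Sptan1, and the interactions of Nefl, Nefh and Sptan1 kept their sign and call under every alternative run on that panel. Counting error was below the SD of the mice in 14 of 16 member groups on the Glial panel and 12 of 12 on the Neuropathology panel; the exceptions were Nefl in 5xFAD males and Nefh in Plcg2+/- males. The causes of the changes below were not tested.

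Centring on the median gene gave -0.007 for Nefl over both sexes and 0.129 for Thy1 in females, and for sex in Plcg2+/- mice -0.019 (Nefl), 0.057 (Sptan1) and 0.088 (Thy1), with 95 genes called for sex in Plcg2+/- mice and 315 for sex over both genotypes (468 in Plcg2+/- mice as deposited). Centring on neuron markers gave, over both sexes, 0.002 for Nefh, -0.127 for Nefl, -0.015 for Sptan1 and -0.153 for Thy1 (then called). In females it gave 0.102 for Nefl and -0.03 for Thy1, and -0.245 for the Thy1 interaction. For sex in Plcg2+/- mice it gave 0.112 (Nefh), -0.151 (Nefl), -0.075 (Sptan1) and -0.044 (Thy1), for sex over both genotypes 0.077 (Nefl) and 0.079 (Thy1), and 80 and 370 genes called. Quantile normalization gave 0.026 for Nefh and -0.146 for Thy1 in males, 0.031 for Thy1 over both sexes, and -0.054 (Nefl), -0.046 (Sptan1) and 0.013 (Thy1) for sex in Plcg2+/- mice, with 69 and 293 called. Voom on recovered counts gave 0.151 for Sptan1 (then called) and 0.014 for Thy1 over both sexes, and -0.103 (Nefl), -0.024 (Sptan1) and 0.006 (Thy1) for sex in Plcg2+/- mice, with 92 and 326 called. Array weights gave -0.043 for Nefl over both sexes, 0.151 for Nefl by sex in Plcg2+/- mice (then called, adjusted p = 0.0494) and 256 interactions called against 166. Without a sex term Nefh was 0.135 and not called (adjusted p = 0.449). Under median centring the correlation of Nefl with Nefh was 0.35 (adjusted permutation p = 0.0713), and under quantile normalization it was 0.29 and that of Nefh with Thy1 0.22, neither passing.

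Leaving out 1 mouse at a time, Nefl over both sexes ranged from -0.044 to 0.032, Sptan1 over both sexes from 0.068 to 0.151 and Sptan1 by sex in Plcg2+/- mice from 0.198 to 0.243, the last losing its call without any 1 of 6 mice. Leaving out female 12 and male 3 together gave -0.038 for Nefl over both sexes and 0.235 (not called) for Sptan1 by sex in Plcg2+/- mice.

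The Neuropathology panel gave interactions of -0.583 (Nefh), -0.276 (Nefl) and -0.191 (Thy1), differences in females of -0.251 (Nefh) and -0.131 (Thy1), in males of -0.835 (Nefh) and -0.052 (Nefl), and over both sexes of -0.543 (Nefh) and -0.226 (Thy1). For sex in Plcg2+/- mice it gave 0.294 (Nefh, not called) and 0.24 (Nefl, called). Without female 12 and male 3 (added after seeing the data) these became -0.391 and -0.174 in females, -1.007 and -0.133 in males, and -0.699 and -0.275 over both sexes, with 0.204 for Nefl by sex, 311 interactions and 494 male differences called. Centred on the median gene (also added), over both sexes they were -0.464 (Nefh), 0.165 (Nefl) and -0.147 (Thy1). In females they were -0.317, 0.159 (call lost) and -0.196 (called), in males -0.611, 0.172 (called, opposite sign) and -0.098 (call lost), and the interactions -0.294, 0.013 and 0.098. Sex differences in 5xFAD mice were then 0.314, -0.048 and 0.009, in Plcg2+/- mice 0.019, -0.034 and 0.107, and over both genotypes 0.167, -0.041 and 0.058. The calls were 479 in males, and 242, 27 and 176 for sex in 5xFAD, in Plcg2+/- and over both.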

Other observations

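The 18 genes called higher in Plcg2+/- females and lower in Plcg2+/- males were listed after their values were seen. Besides Nefl, Sptan1 and Thy1 they include neuronal and adhesion genes: Cdk5r1 (interaction -0.49), Adcy1 (-0.67), an adenylyl cyclase of neurons, Shc3 (-0.78), an adaptor of neurotrophin receptors, and Tln2 (-0.68), a talin that links integrins to actin. They also include vascular genes, Flt1 (-1.25), a VEGF receptor, Adgrl4 (-0.84) and Esam (-0.68), and Sox9 (-0.74), a transcription factor of astrocytes. Opposed calls on the Glial panel were therefore not limited to neuronal genes. Of the 18, 7 are also on the Neuropathology panel, where 1, Nwd1, had opposed calls (0.27 in females and -0.33 in males) and 2 had a called interaction, Nwd1 and Esam (-0.41). Flt1 was there at 0.25 in females (adjusted p = 0.124) and -0.07 in males (adjusted p = 0.7), with an interaction of -0.32 (adjusted p = 0.228). Sox9 was lower there in both sexes, at -0.67 and -1.36.

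Because the 5xFAD transgenes use the Thy1 promoter, App was looked up as well; whether its probe reads the human transgene is not given in the sources used here. On the Glial panel App was higher in Plcg2+/- females (0.32, adjusted p = 0.01) and at 0.24 in males (adjusted p = 0.0617), and its interaction was -0.08 (adjusted p = 0.71). On the Neuropathology panel App was at 0.14 in females (adjusted p = 0.173) and higher in males (0.21, adjusted p = 0.039). Thy1 there was at -0.13 in females (adjusted p = 0.096) and -0.32 in males (adjusted p = 0.000417). A relation of App to Thy1 was not tested.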
